A study of Mus musculus with 8 samples.

Results

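The 7 genes that encode ligands of the epidermal growth factor receptor (EGFR), namely Tgfa, Btc, Ereg, Epgn, Areg, Hbegf and Egf, were examined as a pool in mouse epidermis. They were chosen by name, with earlier results of these data known. Each matched a single entry among the 49315 genes of the count tables. RNA sequencing was available for 8 libraries of back skin epidermis from mice of 22 months, labelled as keratinocytes. The mice were Tgfa knockout (KO, 5 libraries) or wild type (WT, 3 libraries). The sources used here give neither the strain, the sex, the structure of the Tgfa allele, nor the tissues in which it was inactive. Nor do they say that each library came from a separate mouse, and p-values therefore reflect only how these samples vary, which may be technical. Library names end in bl for KO replicates 3 to 5 and in br for KO replicates 1 and 2 and all WT replicates, endings that no source explains.

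EGFR ligands are made as membrane-anchored precursors, and proteases of the ADAM family release the active growth factor from the cell surface. Tgfa, Btc, Hbegf and Egf encode ligands that bind EGFR with high affinity, whereas the products of Areg, Ereg and Epgn bind it with low affinity. In skin, keratinocytes both make these ligands and respond to them, and the receptor is known for its part in epidermal growth, wound closure and the hair cycle. Mice without Tgfa are known for wavy hair and curled whiskers.

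Libraries held 5313552 to 18292303 counts, and 3 of them stood apart. KO replicate 2 was the shallowest and had 4.54 counts per kilobase (kb) of exon on olfactory and vomeronasal receptor genes, which skin is not known to express, against 0.122 to 1.83 in the other 7 libraries. WT replicate 3 had the next highest value, 1.83, and Malat1, a nuclear noncoding RNA, took 6.61% of its counts. In the library labelled KO replicate 1, Malat1 took 4.88%, and in the remaining 6 it took 1.34% to 1.84%. After the scaling described below, the library labelled KO replicate 1 also had more Tgfa transcript than any WT library, unlike the other KO libraries. Its factor in that scaling was 0.780, the lowest of all libraries, which raises its values. By total counts alone, its Tgfa (1787 of 17417500 counts) lay below that of WT replicate 3 (1429 of 12968728). Since the structure of the Tgfa allele is not given, the Tgfa level does not settle whether the label is right. All 6 keratinocyte markers (Krt5, Krt14, Krt1, Krt10, Trp63 and Dsg3) were counted in every library. Their sum was 9618 to 23583 CPM (counts scaled to library size) in KO and 7666 to 17862 CPM in WT, and it was lowest in KO replicate 2 and WT replicate 3.

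The summed ligand pool was smaller in every KO library than in any WT library. To compare genes of different length, the level of a gene was taken as its CPM, scaled to a common library size by the trimmed mean of M-values (TMM), per kb of exon. The pool was the sum of the 7 levels. The pool was 230.7, 161.5, 117.7, 143.8 and 162.1 CPM per kb in KO replicates 1 to 5, against 376.6, 471.1 and 247.5 CPM per kb in WT replicates 1 to 3. The groups did not overlap, and the nearest pair was the library labelled KO replicate 1 and WT replicate 3. The mean was 163.2 ± 41.8 CPM per kb in KO (SD, n = 5) and 365.1 ± 112 CPM per kb in WT (SD, n = 3), so that the KO mean was 44.7% of the WT mean. No test was made of the sum, since its members were chosen with results of these data known. Among libraries ending in br, the mean was 196.1 CPM per kb in the 2 KO libraries and 365.1 CPM per kb in the 3 WT libraries. In whole epidermis, fewer cells of a type and less RNA per cell cannot be told apart.

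**Figure D1:**
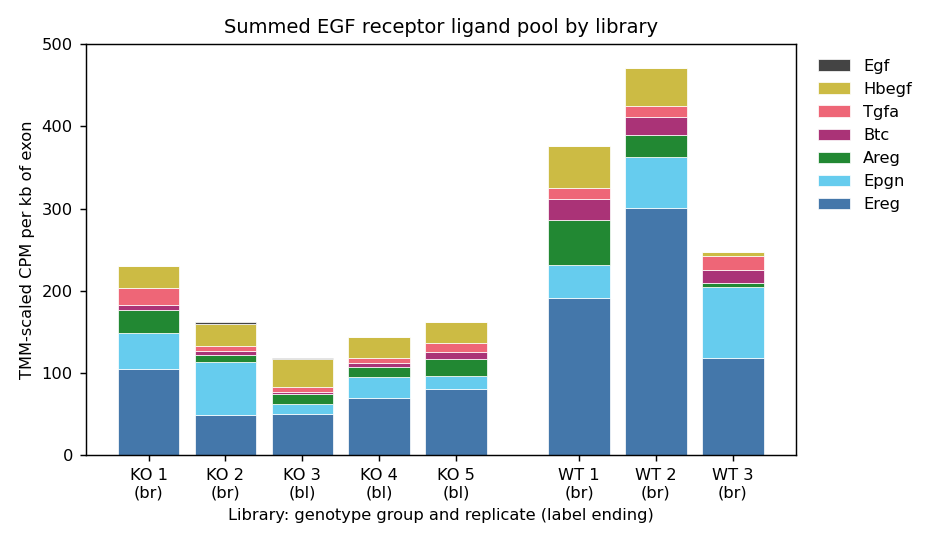
Stacked bars give the level of each EGFR ligand gene (TMM-scaled CPM per kb of exon) in each of the 5 KO and 3 WT libraries, with the label ending in brackets. The KO bars end between 117.7 and 230.7 and the WT bars between 247.5 and 471.1, with Ereg making up the bottom segment.

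Ereg, which encodes epiregulin, accounted for most of the difference in the pool. Its mean level was 70.8 CPM per kb in KO and 203.6 CPM per kb in WT, a difference of -132.8, which makes up 65.8% of the pool's difference. Epgn, which encodes epigen, made up 15.0% of it, Btc (betacellulin) 7.66%, Areg (amphiregulin) 6.13%, Hbegf (heparin-binding EGF-like growth factor) 3.08% and Tgfa itself 2.54%. Without Tgfa, the pool of the other 6 ligands was 153.4 ± 36.3 CPM per kb in KO and 350.2 ± 114 CPM per kb in WT, again with no overlap. Without Ereg, the sum of the remaining ligands was 92.3 ± 25.3 CPM per kb in KO and 161.5 ± 29.1 CPM per kb in WT. The KO values of that sum reached 125.7 and the WT values began at 129.0, so they did not overlap either.

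The composition of the pool was led by Ereg in 7 of 8 libraries, the exception being KO replicate 2, where Epgn was ahead. Egf was the smallest part in all 8. The share of Ereg was 45.5%, 30.4%, 42.3%, 48.8% and 49.5% in KO replicates 1 to 5, against 50.9%, 63.8% and 47.9% in WT replicates 1 to 3. KO replicates 4 and 5 lay above WT replicate 3, so the groups overlapped. The mean Ereg share was 43.3% ± 7.76 in KO and 54.2% ± 8.47 in WT, a difference that did not pass a two-sided exact permutation test (p = 0.107). That difference was -10.9 percentage points, and -6.10 without WT replicate 2, which had the highest Ereg share.

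Btc held a smaller share of the KO pool than of the WT pool. Betacellulin binds both EGFR and ERBB4. Its share was 2.46%, 3.38%, 2.42%, 3.49% and 4.83% in KO replicates 1 to 5, against 6.58%, 4.53% and 6.61% in WT replicates 1 to 3. The ranges met only where KO replicate 5 lay above WT replicate 2. The mean was 3.32% ± 0.984 in KO and 5.91% ± 1.19 in WT (exact permutation p = 0.0357, two-sided, with 0.0179 the smallest p of the design). This p is unadjusted, and shares of 7 ligands were computed, which sum to 100% and so are not independent. The ligands were also chosen with results of these data known, which no p-value of a share takes into account. The exact permutation p missed 0.05 when any of 6 libraries was left out. It was 0.0857 without each of KO replicates 1 to 4 and 0.0952 without WT replicate 1 or 3, in designs that allow no exact p below 0.0286 and 0.0476.

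Hbegf, whose product is a wound-associated growth factor of keratinocytes, held a larger mean share in KO. Its mean level was not higher, at 28.0 ± 3.53 CPM per kb in KO and 34.2 ± 25.6 CPM per kb in WT. The share was 12.1%, 17.0%, 28.9%, 17.5% and 15.8% in KO replicates 1 to 5, against 13.6%, 9.91% and 1.93% in WT replicates 1 to 3. Only the library labelled KO replicate 1 lay below a WT library. The mean was 18.3% ± 6.32 in KO and 8.48% ± 5.97 in WT, and the difference did not pass (exact permutation p = 0.0714). The exact permutation p was 0.0286 on leaving out the library labelled KO replicate 1 and 0.0476 on leaving out WT replicate 1, each the smallest possible there. The exact permutation p missed 0.05 on leaving out any other library. It was 0.0857 without each of KO replicates 2 to 5 and 0.190 without WT replicate 2. On leaving out WT replicate 3 the means were 18.3% in KO and 11.8% in WT (exact permutation p = 0.286).

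The shares of the other 4 ligands did not pass the test either. Tgfa, the targeted gene, had a mean share of 5.66% ± 2.22 in KO and 4.51% ± 2.18 in WT (exact permutation p = 0.518). The share of Epgn was 19.3% ± 12.2 in KO and 19.5% ± 13.4 in WT, and that of Areg was 9.88% ± 3.16 in KO and 7.36% ± 6.70 in WT (exact permutation p = 0.982 and 0.482). The mean Tgfa share differed by 1.15 percentage points, and by 0.37 without the library labelled KO replicate 1 and 0.29 without WT replicate 2. Egf made up 0.311% ± 0.343 of the KO pool and 0.0514% ± 0.0304 of the WT pool (exact permutation p = 0.268). Its share lay above every WT library in KO replicates 2 to 5 (0.160% to 0.896% in KO, against 0.0185% to 0.0784% in WT), and below them in the library labelled KO replicate 1 (0.00283%, from 1 count). Tgfa ranked above Btc in 4 of 5 KO libraries, KO replicate 2 being the exception, and in 1 of 3 WT libraries. The ratio of Tgfa to Btc was 3.58, 0.971, 2.34, 1.11 and 1.38 in KO replicates 1 to 5, against 0.575, 0.614 and 1.05 in WT replicates 1 to 3.

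**Figure D2:**
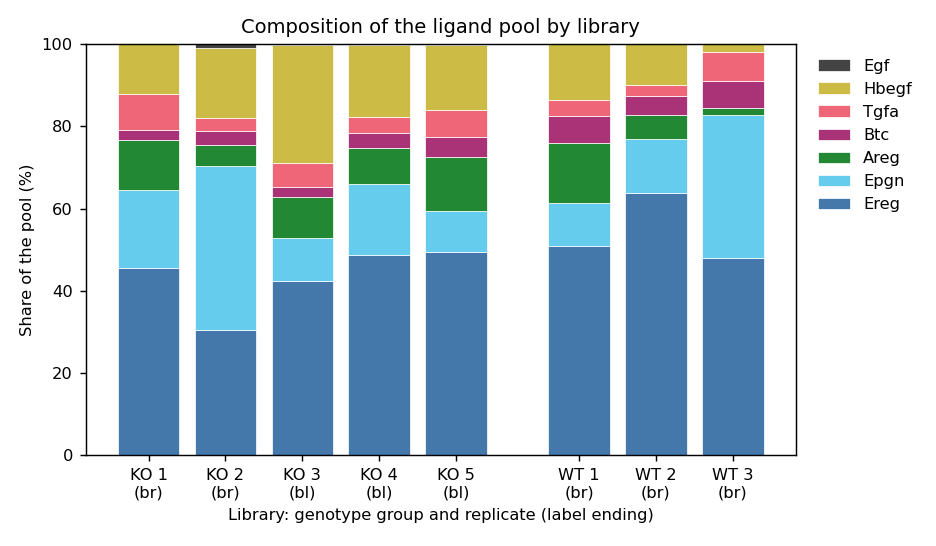
Stacked bars give the share of each ligand in the summed pool (percent, from CPM per kb of exon) in each KO and WT library. Ereg fills 30.4% to 49.5% of the KO bars and 47.9% to 63.8% of the WT bars, and the Btc segment is 2.42% to 4.83% in KO and 4.53% to 6.61% in WT.

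Grouped by affinity, the KO and WT pools overlapped. The 4 high-affinity ligands held 27.5% ± 5.58 of the KO pool and 18.9% ± 4.45 of the WT pool, and the 3 low-affinity ligands held the rest, 72.5% in KO and 81.1% in WT. The high-affinity class includes Tgfa, with a mean share of 5.66% in KO and 4.51% in WT. Whether the Tgfa transcript counted in KO encodes an active ligand is not known here. The overlap arose because the 23.3% of the library labelled KO replicate 1 lay below the 24.0% of WT replicate 1. Evenness was summarised as the effective number of ligands (inverse Simpson index), which would equal 7 if all shares were equal. It was 3.56, 3.50, 3.48, 3.24 and 3.30 in KO replicates 1 to 5, against 3.17, 2.27 and 2.77 in WT replicates 1 to 3, so every KO library had a more even pool. Classes and indices over the ligands were described only and not tested.

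Across all genes, edgeR's quasi-likelihood test of KO against WT was applied to 19239 genes that passed the filter on low counts, all 7 ligands among them. It called 0 of the 7 ligands at an adjusted p under 0.05 in either direction, where 0% of all genes were called lower and 0.0052% higher. At an unadjusted p under 0.05, 2 of 7 were lower (Btc and Ereg) and 0 higher, against 1.85% of all genes lower and 4.44% higher. In the same 2, CPM did not overlap between the groups, with KO lower, a pattern of 1.75% of all genes, and in 0 of 7 was KO higher without overlap, against 3.4%. Log2 fold changes (KO minus WT) were below 0 for 6 of 7 ligands, against 38.1% of all genes. The median was -0.81 for the ligands and 0.16 for all genes. DESeq2 on the same counts called 2 ligands lower and 0 higher, against 0.235% of genes lower and 0.569% higher. With library quality weights in limma voom, 4 ligands were called lower and 0 higher, against 3.07% and 3.39% of genes. In limma voom without weights, 0 ligands and 0 of 19239 genes were called. Without the 3 libraries that stood apart, edgeR called 3 ligands lower (Ereg, Epgn and Hbegf), against 5.32% of genes lower and 5.25% higher. That fit kept only bl libraries for KO and only br libraries for WT, so it cannot separate genotype from label ending. It also dropped the nearest pair of the pool, the library labelled KO replicate 1 and WT replicate 3. The former had stood apart partly by its TMM-scaled level of Tgfa, itself a ligand. With the label ending as a covariate, edgeR called 0 ligands (0% of genes lower, 0.00426% higher). For KO libraries ending in bl against WT, edgeR also called 0 ligands (0.0637% of genes lower, 0.0579% higher). On simulated counts for the 19239 genes, DESeq2 made 76 false calls, against 7 by edgeR and 4 by limma voom with library weights. Of 100 genes changed by 2 on the log2 scale in that simulation, edgeR recovered 29, DESeq2 47 and limma voom with weights 28. The simulation gave each gene the same dispersion in all libraries, so none of them stood apart. Its false calls are therefore no error rate for these fits on the real libraries, least of all for the weighted fit. The library weights were 0.284 for the library labelled KO replicate 1, 0.366 for KO replicate 2 and 0.339 for WT replicate 3, and 1.47 to 2.26 for the rest. That fit therefore rests mostly on KO libraries ending in bl and WT replicates 1 and 2.

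**Figure D3:**
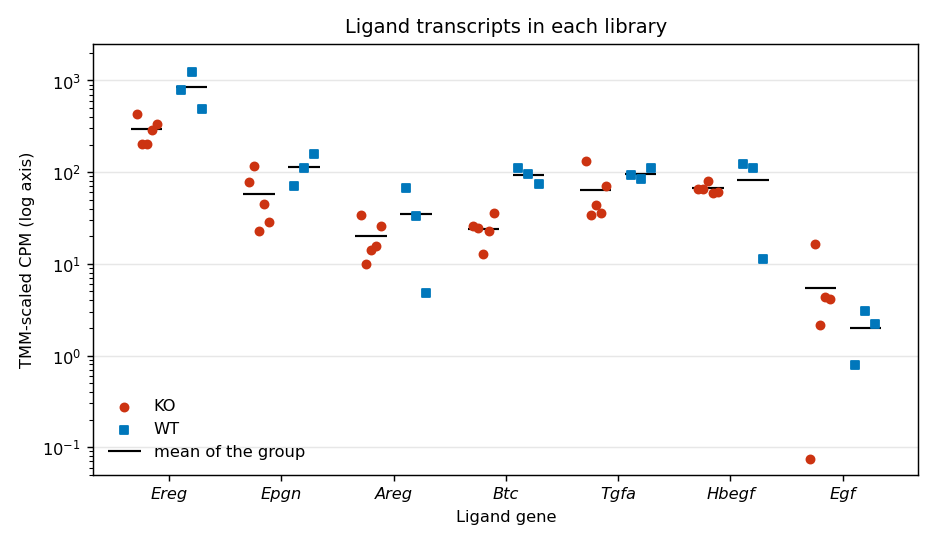
Each point is a library and gives the TMM-scaled CPM of a ligand gene on a log axis, KO as circles left of WT as squares, with the group mean as a line. For Ereg and Btc all 5 KO points lie below all 3 WT points, and for the other 5 genes the groups overlap.

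Tgfa transcript remained in all KO libraries. Tgfa (chromosome 6, 86195223 to 86275719, plus strand, GRCm38) had 131.7, 34.4, 43.3, 36.2 and 70.1 CPM in KO replicates 1 to 5, against 92.5, 85.1 and 111.7 CPM in WT replicates 1 to 3. KO replicates 2 to 5 lay below every WT library. The library labelled KO replicate 1 lay above all of them after TMM scaling, but below WT replicate 3 by total counts alone. The log2 fold change was -0.61 (SE 0.43, edgeR adjusted p = 0.899). Without the library labelled KO replicate 1 the means were 46.0 CPM in KO and 96.4 CPM in WT, a log2 fold change of -1.07 (edgeR adjusted p = 0.186). Among libraries ending in br the means were 83.0 CPM in KO and 96.4 CPM in WT, a log2 fold change of -0.20, and with the ending as a covariate it was -0.21 (edgeR adjusted p = 0.994 and 0.925). With library weights Tgfa fell by 0.91 on the log2 scale (limma adjusted p = 0.0483). A count over all exons includes any part of the transcript that a targeted allele still makes. The unnamed transcript Gm43917 overlaps Tgfa on the other strand and had 13 to 75 counts in KO and 46 to 51 in WT, small beside the 198 to 1787 counts of Tgfa in KO and 1286 to 1652 in WT.

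Btc, Ereg, Epgn and Areg lie together on chromosome 5, in a span of 375531 bases. In genomic order these are Epgn (91027464 to 91035215), Ereg (91074622 to 91093646) and Areg (91139599 to 91148432) on the plus strand, and Btc (91357261 to 91402994) on the minus strand, all on GRCm38. The group held 75.8% ± 5.91 of the pool in KO and 87.0% ± 4.23 in WT. Its share was 79.1%, 78.8%, 65.3%, 78.3% and 77.3% in KO replicates 1 to 5, against 82.6%, 87.2% and 91.0% in WT replicates 1 to 3, with no overlap. The remaining 3 ligand genes, on chromosomes 3, 6 and 18, thus together held a larger share in every KO library. Taken singly, the share of each overlapped between the groups.

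Btc was the ligand with the lowest level relative to WT. It had 25.6, 24.7, 12.9, 22.7 and 35.4 CPM in KO replicates 1 to 5, against 112.0, 96.5 and 73.9 CPM in WT replicates 1 to 3. All 5 KO libraries lay below all 3 WT libraries. This gave a log2 fold change of -1.96 with an SE of 0.30 and a 95% interval from -2.62 to -1.29 (edgeR adjusted p = 0.22). It was -1.97 within libraries ending in br and -2.04 for KO libraries ending in bl against WT (edgeR adjusted p = 0.993 and 0.0635). With no filter on low counts Btc passed (edgeR adjusted p = 0.00941), as it did in DESeq2 (adjusted p = 5.41e-06) and with library weights (limma adjusted p = 0.00301).

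Ereg was lower by a similar factor at a higher level. It had 433.4, 202.7, 205.3, 289.6 and 331.0 CPM in KO replicates 1 to 5, against 790.6, 1241 and 489.5 CPM in WT replicates 1 to 3. The library labelled KO replicate 1 was the nearest to WT, and WT replicate 3 was the lowest of its group. For Ereg the log2 fold change came to -1.52 with an SE of 0.36 and a 95% interval from -2.32 to -0.72 (edgeR adjusted p = 0.431). Ereg passed in DESeq2 (adjusted p = 0.00756) and with library weights (limma adjusted p = 0.00321). An antisense transcript at its start, Gm19610, had 2 to 18 counts in KO and 5 to 30 in WT, against 1167 to 5880 counts of Ereg in KO and 6263 to 18767 in WT.

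Epgn was low in the KO libraries whose names end in bl, and in the KO libraries ending in br it had WT levels. It had 78.9, 116.5, 22.7, 44.4 and 28.8 CPM in KO replicates 1 to 5, against 71.0, 111.7 and 156.2 CPM in WT replicates 1 to 3. The 2 KO libraries ending in br lay within the WT range, and the 3 KO libraries ending in bl lay below every library ending in br. Those 2 KO libraries were also among the libraries that stood apart. Within KO, the ending therefore cannot be told apart from what set them apart. The log2 fold change was -0.96 (SE 0.51, edgeR adjusted p = 0.836) over all libraries, -0.28 among libraries ending in br and -1.89 for KO libraries ending in bl against WT. With the ending as a covariate it was -0.30 (edgeR adjusted p = 0.8645). Among KO libraries alone, those ending in bl differed from those ending in br by -1.68 (SE 0.35, edgeR adjusted p = 0.154, with 0% of genes called lower or higher). Epgn fell with library weights (-1.53, limma adjusted p = 0.0185), and did not pass in limma voom without them (-1.17, limma adjusted p = 0.652). By their labels, the KO libraries compared with each other share the genotype. All WT libraries end in br, so in the comparison of bl libraries with WT, genotype and what the ending stands for cannot be told apart.

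Areg depended on single WT libraries. It had 34.3, 10.1, 14.2, 15.6 and 26.0 CPM in KO replicates 1 to 5, against 67.3, 32.9 and 4.85 CPM in WT replicates 1 to 3. WT replicate 3, in which Malat1 took 6.61% of counts, lay below all KO libraries and WT replicate 1 above all of them. The log2 fold change was -0.81 (SE 0.65, edgeR adjusted p = 0.91), and it was 0.09 without WT replicate 1 and -1.33 without WT replicate 3. The part of Malat1 in these values was not tested.

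Btc and Areg are shown with the bases before their starts, because Btc had the lowest level relative to WT and Areg held the only match to the motifs searched. The windows are from RefSeq on GRCm38.p6 and give the 250 bases before the start, read 5′ to 3′ along the gene. Areg is at chr5:91139349-91139598 on the plus strand and Btc at chr5:91402995-91403244 on the minus strand, and capitals mark the motif match.
Btc: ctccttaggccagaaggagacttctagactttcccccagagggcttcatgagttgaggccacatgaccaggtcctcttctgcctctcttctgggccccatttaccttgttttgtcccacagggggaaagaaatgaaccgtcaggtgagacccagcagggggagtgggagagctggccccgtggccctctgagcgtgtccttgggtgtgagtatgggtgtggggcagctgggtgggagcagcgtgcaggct
Areg: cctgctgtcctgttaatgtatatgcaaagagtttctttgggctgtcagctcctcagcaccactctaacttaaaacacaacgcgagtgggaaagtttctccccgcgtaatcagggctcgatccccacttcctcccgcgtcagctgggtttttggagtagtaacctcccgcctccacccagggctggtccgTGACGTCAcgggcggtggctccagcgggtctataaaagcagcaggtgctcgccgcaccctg
Motifs were searched on both strands in windows of 250 bases before and 50 after the start, which the table gave for 5 ligand genes (Tgfa, Btc, Epgn, Areg and Egf). The cyclic AMP response element TGACGTCA was found in Areg, 61 bases before the start, and in 1.79% of 32851 windows of the same length. The AP-1 motif TGANTCA, which includes TGACTCA, was in none of the 5 and in 7.81% of all windows. A match is a description of these letters only.

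Genes around the chromosome 5 ligands mostly had log2 fold changes above 0, as did most genes tested (38.1% below 0, median 0.16). Within 500000 bases of the outermost ligand genes there were 8 other tested genes, of which 1 had a log2 fold change below 0 (Gm19610, -0.67) and 0 were called by edgeR. Their median was 0.69, and no gene had groups that did not overlap. All 8 were scarce, with group means from 0.42 CPM (Cxcl1 in WT) to 8.33 CPM (Mthfd2l in KO). The nearest tested gene before Epgn was Mthfd2l, which encodes a mitochondrial folate enzyme, at 8.33 ± 3.66 CPM in KO and 7.73 ± 3.01 CPM in WT (log2 fold change 0.10). The nearest after Btc was Parm1, at 7.18 ± 3.70 CPM in KO and 4.04 ± 1.52 CPM in WT (log2 fold change 0.82). Around Tgfa, 26 tested genes lay within the same distance, 8 of them below 0, with a median of 0.26 and 0 called. In 2 of the 26, Tprkb (1.16) and C87436 (0.74), the groups did not overlap and KO was higher, against 3.4% of all genes. Add2, on the near side of Tgfa, was at 0.72 and the pseudogene Gm7545, on the far side, at 0.61.

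**Figure D4:**
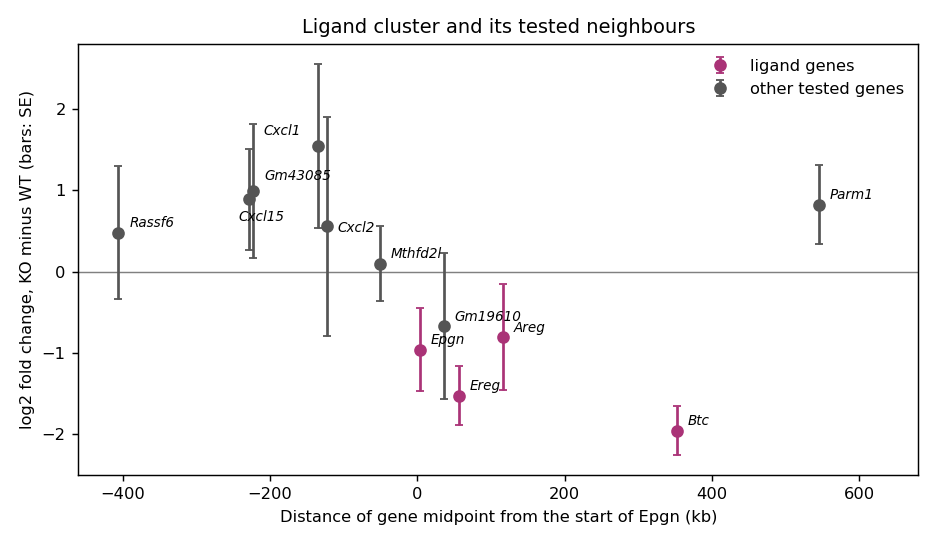
Points give the log2 fold change (KO minus WT, edgeR, bars show the SE) of the 4 ligand genes of chromosome 5 and 8 other tested genes, by distance of the gene's midpoint from the start of Epgn in kb. The ligand genes lie between -1.96 and -0.81 and the other genes between -0.67 and 1.54.

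Hbegf, on chromosome 18 (36504929 to 36515805, minus strand), varied little among KO libraries. It had 66.1, 65.1, 80.7, 59.9 and 60.8 CPM in KO replicates 1 to 5, against 121.6, 110.8 and 11.3 CPM in WT replicates 1 to 3. All KO libraries lay below WT replicates 1 and 2 and above WT replicate 3. The log2 fold change was -0.29 (SE 0.56, edgeR adjusted p = 0.944), -0.82 without WT replicate 3 and 0.10 without WT replicate 1, and limma voom gave 0.31. Areg and Hbegf were thus both lowest in the same library. Over the 8 libraries their log2 CPM had the second highest correlation of the 21 ligand pairs (Pearson r = 0.811), after Btc and Ereg (r = 0.888). These values describe 8 libraries that share genotype and depth differences.

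Egf, on chromosome 3 (129677565 to 129755316, minus strand), was scarce. It had 1, 94, 34, 77 and 59 counts in KO replicates 1 to 5, against 14, 46 and 28 counts in WT replicates 1 to 3. KO replicate 2 had the most, and at the level of its olfactory and vomeronasal receptor genes an exon length of 11.3 kb would hold 51.2 counts, which is 54.5% of its Egf count. The corresponding part was 73.5% in WT replicate 3, 22.8% in WT replicate 2 and more than the single count of the library labelled KO replicate 1. The log2 fold change was 1.41 (SE 1.12, edgeR adjusted p = 0.909) and 0.39 without KO replicate 2. Antisense transcripts overlap Egf, of which Gm42697 had 0 to 26 counts in KO and 0 to 16 in WT, and since the sources used here do not say whether strand was used in counting, these reads and those of Egf cannot be told apart. For the other 6 ligands that level came to at most 14.9% of the count, in Tgfa of KO replicate 2.

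**Figure D5:**
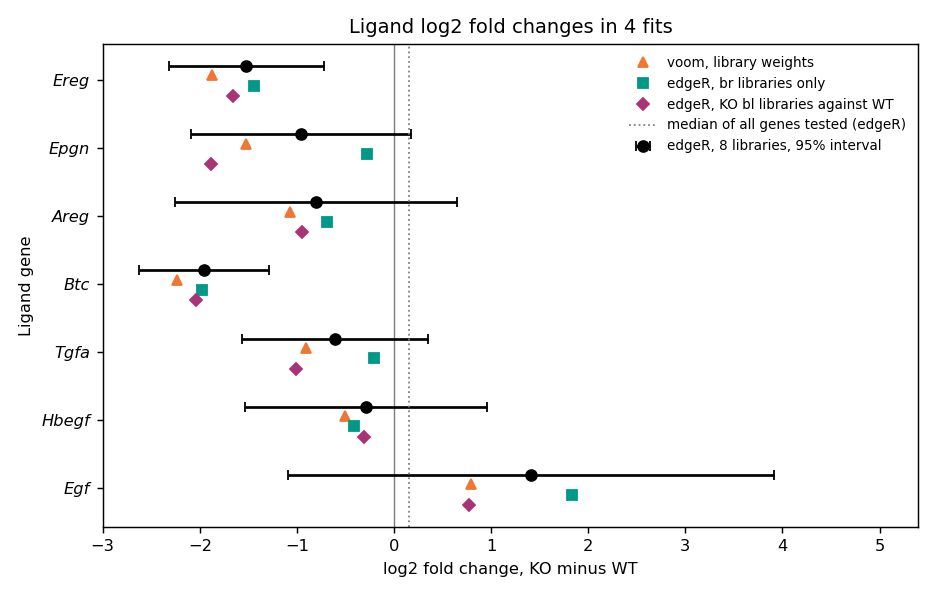
Log2 fold changes (KO minus WT) of the 7 ligand genes are given for edgeR on 8 libraries with 95% intervals, limma voom with library weights, edgeR on libraries ending in br and edgeR on KO libraries ending in bl against WT. Btc and Ereg are at -1.44 or lower in all 4 fits, while Epgn runs from -0.28 to -1.89.

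Other genes of the EGFR pathway showed no call in edgeR. Of 4 neuregulin genes, whose products bind ERBB3 and ERBB4, 3 were tested, with a median log2 fold change of 0.17. Nrg1 had 25.6 ± 16.5 CPM in KO and 35.0 ± 27.3 CPM in WT, and Nrg4 had 5.45 ± 2.36 CPM in KO and 4.81 ± 2.77 CPM in WT. The receptor genes Egfr, Erbb2, Erbb3 and Erbb4 had a median of -0.08. Erbb3, the most abundant with Egfr, had 302.2 ± 94.1 CPM in KO and 342.3 ± 39.4 CPM in WT, and Egfr 325.5 ± 65.0 CPM in KO and 423.3 ± 74.9 CPM in WT. Of 5 genes of ligand release and its inhibition, 4 were below 0 with a median of -0.16. Rhbdf2, which encodes a partner that carries the sheddase ADAM17 to the cell surface, had 169.5 ± 43.1 CPM in KO and 189.8 ± 62.5 CPM in WT. Adam10, which encodes another sheddase of EGFR ligands, had 108.8 ± 26.1 CPM in KO and 118.8 ± 13.7 CPM in WT. Timp3, which encodes an inhibitor of these sheddases and is named after its values were seen, was the farthest from 0 of the 5, at 71.3 ± 34.1 CPM in KO and 157.5 ± 48.2 CPM in WT (log2 fold change -1.15, edgeR adjusted p = 0.657). Of 10 genes of receptor inhibition and ERK feedback, 6 were above 0 and 4 below, with a median of 0.02. Egr1, an immediate early transcription factor gene, had 1020 ± 521 CPM in KO and 993 ± 882 CPM in WT, with 170.9 CPM in WT replicate 3, the lowest of the 8 libraries, as for Areg and Hbegf. Errfi1, which encodes a feedback inhibitor of the receptor, had 216.6 ± 126 CPM in KO and 309.2 ± 89.3 CPM in WT. The values farthest from 0 in this list, picked out once seen, were those of Fosl1, an AP-1 subunit gene, and Dusp6, an ERK phosphatase gene. Fosl1 had 82.3 ± 30.0 CPM in KO and 251.3 ± 184 CPM in WT (log2 fold change -1.61, edgeR adjusted p = 0.627), and Dusp6 had 45.3 ± 15.7 CPM in KO and 90.6 ± 69.7 CPM in WT (edgeR adjusted p = 0.853). Of the 8 libraries, WT replicate 3 had the lowest value of each.

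Markers of other cell types were given beside these values, and their part in the ligand levels was not tested. For Langerhans cells, all 5 markers were below 0 (median -0.54), with sums of 264.0 to 768.9 CPM in KO and 557.6 to 713.4 CPM in WT. For T cells, 4 of 6 markers were above 0, with sums of 46.4 to 120.2 CPM in KO and 58.6 to 86.4 CPM in WT. For hair shaft and inner root sheath, all 5 markers were above 0, with sums of 21.1 to 655.8 CPM in KO, the highest in KO replicate 5, and 26.9 to 35.0 CPM in WT. Fibroblast markers summed to 3.94 to 74.0 CPM in KO and 34.1 to 39.6 CPM in WT, and endothelial markers to 2.44 to 52.3 CPM in KO and 1.46 to 11.6 CPM in WT, both highest in KO replicate 2. Upper hair follicle markers summed to 919.8 to 2113 CPM in KO and 881.9 to 1960 CPM in WT, and bulge markers to 452.1 to 763.9 CPM in KO and 307.6 to 1166 CPM in WT. Sebaceous markers summed to 471.2 to 714.0 CPM in KO and 556.4 to 754.7 CPM in WT, melanocyte markers to 7.81 to 21.5 CPM in KO and 6.96 to 17.2 CPM in WT, and macrophage and neutrophil markers to 17.7 to 59.6 CPM in KO and 29.7 to 42.8 CPM in WT. The groups overlapped in each of these sums, and edgeR called 0 of the markers. In 4 single markers, named for this, the groups did not overlap, against 1.75% of all genes with KO lower and 3.4% with KO higher. Postn, of the bulge list, had 190.3 ± 54.0 CPM in KO and 52.5 ± 21.5 CPM in WT (edgeR adjusted p = 0.33). Krt79, of the upper hair follicle list, had 357.2 ± 143 CPM in KO and 131.3 ± 28.6 CPM in WT, and Mgst1, of the sebaceous list, had 11.4 ± 5.02 CPM in KO and 3.38 ± 0.290 CPM in WT. Plet1, of the upper hair follicle list, was the one with KO lower, at 115.6 ± 69.8 CPM in KO and 373.5 ± 146 CPM in WT. These 4 do not stand for their lists. The bulge list had 2 markers above 0 and 2 below, the upper hair follicle list 3 and 2, and the sebaceous list 4 and 1. Among those below 0 were Krt15 of the bulge list (log2 fold change -0.57) and Scd1 of the sebaceous list (-0.29). Markers at 0 in at least 1 library were Lum, Mlana, Krt31, S100a8 and Ly6g.

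By likeness to the pool over the 8 libraries, the nearest genes among 12537 named genes with a mean of at least 2 CPM were Mlxip (Pearson r = 0.977), Inpp5a (0.967), Hspb8 (0.954), Slc29a2 (0.953) and P2ry10 (0.953), from log2 CPM against the log2 pool. Mlxip, which encodes a glucose-responsive transcription factor, had 143.1, 109.1, 102.5, 103.6 and 114.6 CPM in KO replicates 1 to 5, against 217.1, 219.6 and 136.6 CPM in WT replicates 1 to 3. Its KO range reached above WT replicate 3 only through the library labelled KO replicate 1. The 5 genes had log2 fold changes of -1.38 to -0.57, and none was called by edgeR (adjusted p from 0.537 to 0.688). The likeness includes the difference between the genotypes.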

How the data were processed

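RNA was sequenced from back skin epidermis, and the authors deposited a raw read count per gene for each library, with exon length. The tools named per the submitters' processing notes are featureCounts (Subread 1.5.2), STAR 2.5.2b and Trimmomatic 0.36, with both GRCh38 and GRCm38 as builds. The coordinates in the deposited tables are those of GRCm38, mouse. How multi-mapped reads and strand were treated was not given in the sources.

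Groups came from the labels. The 7 ligands, the other gene lists and the tests were chosen with earlier results of these data known. Counts were fitted with edgeR 4.0.16 (TMM factors, filterByExpr, robust quasi-likelihood test, Benjamini-Hochberg adjustment over 19239 genes) in R 4.3.3, and with DESeq2 1.42.0 and limma 3.58.1 as alternatives. Shares were compared with two-sided exact permutation tests. The fits were tested on simulated data. The BCV was 63.7%, so the number of libraries and their spread limit precision. Named genes were the ligands, up to 2 per pathway subgroup with the highest CPM, the nearest tested neighbours, and the 5 genes most like the pool (predicted genes left out). No 2 libraries of the same group agreed within sampling noise. Protein sequences were not used here.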

Additional observations from a re-analysis of the deposited data

Results flagged for a closer look

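Egf in KO replicate 2 stood apart within its group. It had 16.3 CPM there, against 0.0737 to 4.39 CPM in the other 4 KO libraries, and its gap to the next value was 0.734 of the group's range, above the critical value of 0.71 for 5 samples. This library was also the shallowest and had the most counts on olfactory and vomeronasal receptor genes, whose part in the Egf value is given as an estimate in the report and was not tested. Of 17 quantities checked this was the only 1, and chance flags about 5% of such groups.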

How the results depend on the processing

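The lower pool in KO kept its direction under all alternatives. As every KO pool lay below every WT pool, leaving out libraries could change only the size of the ratio, not its direction. The log2 ratio was -1.38 to -0.94 when any library was left out and -0.90 among libraries ending in br. It was -1.59 without KO replicates 1 and 2 and WT replicate 3. The number of ligands called was 0 in edgeR, in limma voom without weights and when any library was left out. It was 2 in DESeq2, 4 with library quality weights, 1 with no filter and 3 without those 3 libraries. These counts stand beside calls of 1 gene higher and 0 lower in edgeR, 97 and 40 in DESeq2, 653 and 590 with weights, 8 and 1 with no filter, and 935 and 948 without the 3 libraries. Without the 3 libraries, genotype and label ending coincided, so neither the pool's -1.59 nor those calls can separate them. The median log2 fold change over all genes was 0.16 in edgeR, 0.52 in DESeq2 and -0.01 with weights.

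The difference in Btc share (-2.59 percentage points) was -2.99 among libraries ending in br (exact permutation p = 0.2) and -1.97 without the 3 libraries (exact permutation p = 0.3), and ran from -3.28 to -2.24 on leaving out a library. With 5 libraries the smallest exact p is 0.1, so neither of these tests could pass. The difference in Ereg share ran from -14.1 to -6.10 and that in Tgfa share from 0.29 to 2.38 on leaving out a library. The difference in Epgn share (-0.20) changed sign with raw counts (0.89), among libraries ending in br (9.93), without the 3 libraries (0.75) and with summed group means (2.64), and ran from -5.36 to 7.51 on leaving out a library, above 0 without KO replicate 3, 4 or 5 or WT replicate 3. On leaving out a library, the difference in Areg share ran from -0.36 (without WT replicate 3) to 6.19, that in Hbegf share from 6.50 to 12.3, the Areg log2 fold change from -1.33 to 0.090 and that of Hbegf from -0.82 to 0.10. The Hbegf log2 fold change was 0.31 in limma voom. The causes were not tested.

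No paired analysis was possible because the labels carry no replicate numbers, and those used here are only names given in the order of deposit.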
